A study of Homo sapiens with 30 samples.

Results

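The genes described here are the 270 whose start regions lie on chromosome 18, of 16009 genes in a table of read levels at transcription start sites in MEL624, a human melanoma cell line. They were found by matching gene identifiers to GENCODE release 44 on the hg38 build, which placed 15903 of the 16009. Along the chromosome, which is 80.4 Mb long, they were followed in 3 stretches: the first stretch, before 21.3 Mb, held 84 genes, the middle stretch, from 21.3 to 48.5 Mb, held 80, and the last stretch, from 48.5 Mb on, held 106. Of the 270, 178 were protein-coding and 66 were long non-coding RNA genes, and the remaining 26 were pseudogenes or small RNA genes. The genes were chosen by position, and the borders of the stretches were selected on the difference between knockout and control input libraries. Input differences and calls are therefore given below as a description and support nothing about the stretches. Tests are read for the immunoprecipitated libraries.

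The study measured m6Am by m6Am-Exo-Seq, in which capped ends of messenger RNA are protected while the rest is digested, and fragments are then pulled down with an antibody. Control cells were wild-type MEL624 given a random guide RNA, and the other cells were MEL624 PCIF1 KO, both grown in the same DMEM medium with serum. Each genotype had 3 replicates, and each replicate gave an input library, taken without the antibody, and an IP library, for 12 libraries in 4 groups. The KO used in the first stage of the study was a single clonal line, and whether the 3 KO replicates of these libraries share a clone is not stated in the sources used here. A difference between the genotypes and a difference between cell lines therefore cannot be told apart, and the p-values measure the spread between these cultures.

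The cap of a messenger RNA is followed by the first transcribed base, and when that base is adenosine it can carry a methyl group on its ribose and another on the base itself, giving m6Am. PCIF1 is the enzyme that adds the methyl group to the base. Chromosome 18 is one of the gene-poor human chromosomes. Its short arm carries TYMS, the thymidylate synthase that makes a DNA precursor, and its long arm carries the SMAD2, SMAD4 and SMAD7 genes of TGF-beta signalling and BCL2, an inhibitor of apoptosis.

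Start sequences are shown for genes whose libraries differed most clearly along the chromosome or by antibody, because the base that can become m6Am is the first transcribed one. They come from the hg38 reference, run 5′ to 3′ on the gene's strand, hold 10 bases before the start of the canonical transcript and 10 from it on, and have the first transcribed base in capitals. The start used in these cells was not tested, and the window over which the authors counted reads is not given in the sources used here. Of the first stretch:
TYMS (chr18:657643-657662, plus strand): ccaccgcgccActtggcctg
SMCHD1 (chr18:2655716-2655735, plus strand): ctcctgcgccAcagtcccgg
MYL12B (chr18:3262123-3262142, plus strand): ccgccccttcAggcaggaag
LINC00667 (chr18:5238057-5238076, plus strand): gcgccgacacGcacttccgg
SEH1L (chr18:12948001-12948020, plus strand): gggcgtgggcAgcacaagcc
Of the middle stretch, including 3 neighbours that broke its pattern (ELP2, COSMOC and MOCOS):
ELP2 (chr18:36129889-36129908, plus strand): gcggaagtgcGcgtctcttg
COSMOC (chr18:36187450-36187469, minus strand): cccgccacgcCtcccaggcc
MOCOS (chr18:36187487-36187506, plus strand): ccggcttcgcGcacttcccg
ATP5F1A (chr18:46098287-46098306, minus strand): gcggctcggcCattttgtcc
MIR4527HG (chr18:47285715-47285734, plus strand): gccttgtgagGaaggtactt
SMAD2 (chr18:47930650-47930669, minus strand): cagcgcgggcGcgcgcgtcc
Of the last stretch:
FECH (chr18:57586693-57586712, minus strand): ggggatcgctAcccggctcg
PMAIP1 (chr18:59899986-59900005, plus strand): cggggatctcAgagtttccc
BCL2 (chr18:63319760-63319779, minus strand): ccttctccccAcccctcgcc
LINC01029 (chr18:77993722-77993741, minus strand): agtttcgctgCataggctct

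The libraries held 3232562 to 4094070 reads over the listed genes in control inputs, 2836120 to 3544669 in KO inputs, 4035815 to 4625190 in control IPs and 1753164 to 2177874 in KO IPs, so the KO IPs were the shallowest. The genes of chromosome 18 took 1.40 to 1.67% of the reads of a library. Values are CPM, read counts scaled to the total of the library, and differences are on the deposited log2 CPM scale with their standard error (SE). PCIF1, on chromosome 20 from 45934683 to 45948023, had input levels of 57.8, 52.5 and 49.3 CPM in control cells and of 70.3, 77.9 and 77.0 CPM in KO cells; the edited site is not given in the sources used here, so reads at the start of the gene check nothing about the knockout. Of 16 melanocyte genes looked for, 3 were in the table. Their summed level was 48.2 to 65.6 CPM in control inputs and 41.9 to 46.2 CPM in KO inputs. In the IPs it was 112 to 129 CPM in control and 61.8 to 66.2 CPM in KO cells. MLPH made up most of the sum, with control and KO means of 39.8 and 28.4 CPM in inputs and 89.2 and 40.9 CPM in IPs. MITF had 10.2 and 10.0 CPM in inputs and 11.9 and 4.19 CPM in IPs. RAB27A had 6.26 and 5.82 CPM in inputs and 17.2 and 18.6 CPM in IPs. The part of these levels in the IP results was not tested, and SOX10, PMEL and MLANA were not in the table. None of the 16 markers of keratinocytes, leukocytes, endothelial cells and fibroblasts was in the table.

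In input RNA, genes of the first stretch were lower in KO than in control cells, and genes of the middle and last stretches were higher. The median difference, KO minus control, was -0.76 on the log2 scale over the 84 genes of the first stretch, 0.31 over the 80 of the middle stretch and 0.51 over the 106 of the last. The median over all 16009 genes was -0.02. Of the first stretch 71 of 84 genes lay below 0, of the middle stretch 63 of 80 above 0 and of the last stretch 93 of 106 above 0. In the first stretch 44 genes passed adjusted p under 0.05 as lower and 3 as higher; in the middle stretch 5 and 21, and in the last stretch 1 and 42, where over all genes 5.67% passed as lower and 5.56% as higher. These input counts come from the contrast that drew the stretches and are a description.

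**Figure D1:**
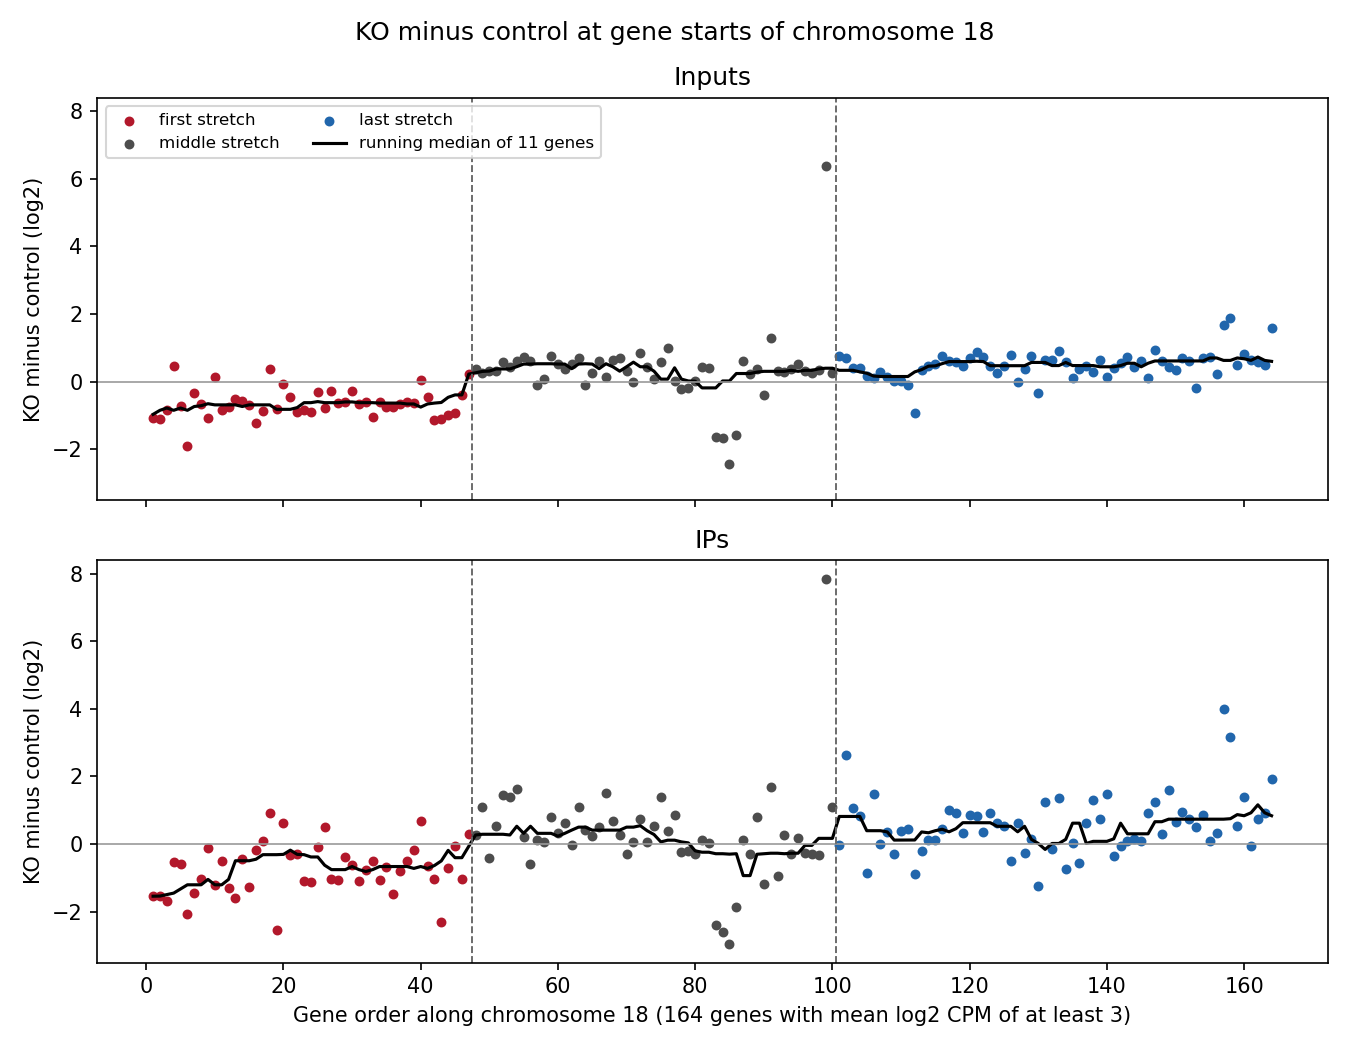
KO minus control (log2, vertical axis) of the 164 chromosome 18 genes with a mean log2 CPM of at least 3, in their order along the chromosome, in input libraries (top) and IP libraries (bottom). Points are genes, coloured by stretch, the line is a running median over 11 genes and dashed lines mark the stretch borders; in both kinds of library most points of the first stretch lie below 0 and most of the last stretch above it.

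The IP libraries are other libraries than the inputs that set the borders. Each replicate gave both kinds, however, so the IPs share its RNA and are no independent check of the borders. They showed the same order. Their median difference, KO minus control, was -0.91 in the first stretch, 0.28 in the middle and 0.63 in the last, against -0.04 over all genes. In the first stretch 48 of 84 genes (57.1%) fell and 9 (10.7%) rose, where 26% of all genes fell and 23% rose. In the middle stretch 30 of 80 (37.5%) rose and 10 (12.5%) fell, and in the last stretch 56 of 106 (52.8%) rose and 9 (8.49%) fell. The share of genes that fell was thus above the share in the whole table in the first stretch and below it in both others. The 3 KO IPs lay below all 3 control IPs for 51 genes of the first stretch (60.7%), where 28.6% of all genes did so, and above all 3 for 56 genes of the last stretch (52.8%), where 26% did. The IPs measure pulled-down RNA of the same cells, so a change in the amount of RNA per cell and a change in its pull-down are both in these values, and fewer cells of a type and less RNA per cell cannot be told apart in such bulk samples.

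The order of the stretches was the same over well covered genes. Over the 164 genes with a mean log2 CPM of at least 3, which is 8 CPM, the input medians were -0.66, 0.34 and 0.49 in the 3 stretches, and the IP medians were -0.72, 0.20 and 0.51. In the IPs 32 of 47 such genes of the first stretch fell (68.1%), 22 of 53 of the middle stretch rose (41.5%) and 38 of 64 of the last stretch rose (59.4%). Of all 9646 genes that well covered, 35.2% fell in the IPs and 24.9% rose. All 270 genes, and all 16009 of the table, passed the filter of a log2 CPM of at least 0 in at least 3 libraries.

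Every KO library showed the same order of stretches. The stretches were drawn on the input difference, so the input levels below are a description and support nothing about the stretches. Taken over the well covered genes of the first stretch, the median level of the 3 KO inputs, relative to the mean of the control inputs, was -0.68 ± 0.06 (SD, n = 3) on the log2 scale, from -0.71 to -0.61. It was 0.35 ± 0.05 (SD, n = 3) in the middle stretch and 0.49 ± 0.01 (SD, n = 3) in the last. No KO input overlapped a control input in any stretch. The KO IPs stood at -0.73 ± 0.02 in the first stretch, 0.19 ± 0.07 in the middle and 0.47 ± 0.14 in the last (SD, n = 3), relative to the control IPs. Over genes of the other chromosomes the KO IPs stood at -0.12 ± 0.02 (SD, n = 3) and the KO inputs between -0.02 and 0.00, so the IPs' middle stretch lay 0.12 to 0.26 above the controls and above the rest of the genome as well.

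**Figure D2:**
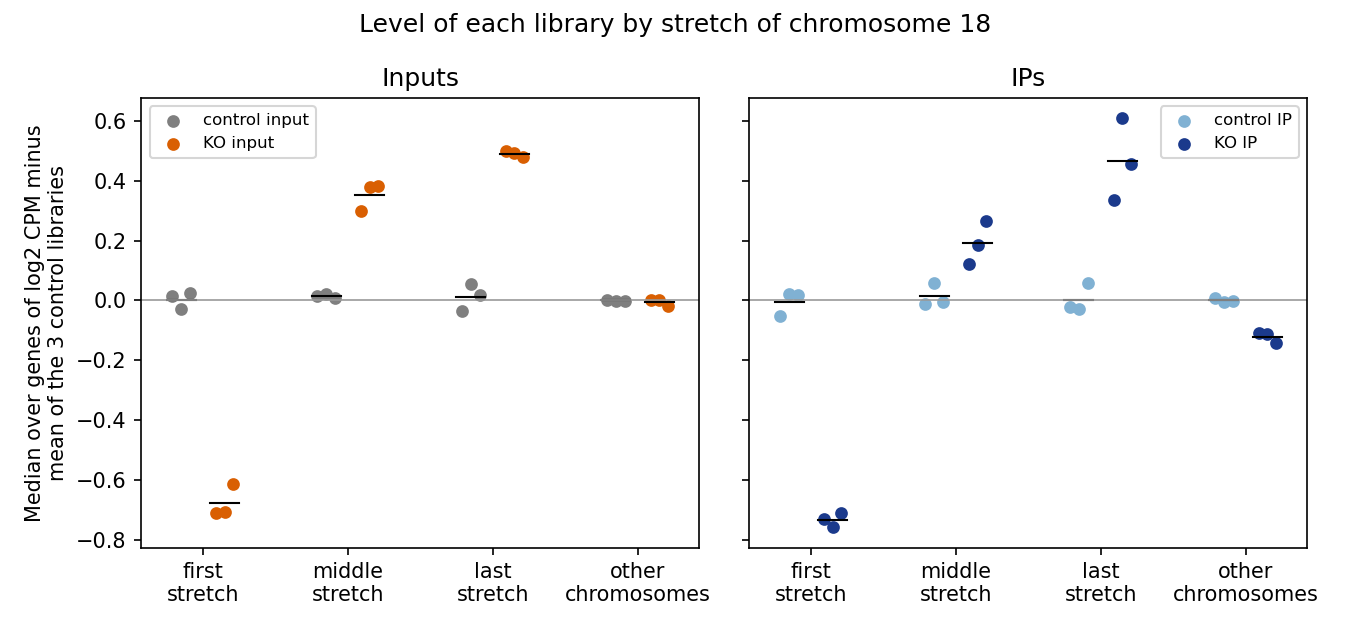
Median over well covered genes of each library's log2 CPM minus the mean of the 3 control libraries of its kind (vertical axis), for the 3 stretches and for other chromosomes (horizontal axis), in inputs (left) and IPs (right). Each point is a library and each line the mean of 3; KO points lie near -0.7 in the first stretch and above the controls in the other stretches.

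The share of a library's reads in each stretch differed between the genotypes. Genes of the first stretch took 0.773 ± 0.006% of the reads in control inputs and 0.488 ± 0.033% in KO inputs (SD, n = 3). Their share of IP reads was 0.964 ± 0.027% in control and 0.536 ± 0.027% in KO cells (SD, n = 3). The last stretch went the other way, from 0.462 ± 0.011% to 0.667 ± 0.032% of input reads and from 0.377 ± 0.005% to 0.528 ± 0.016% of IP reads (SD, n = 3). In the middle stretch the shares were 0.334% and 0.392% in inputs and 0.314% and 0.374% in IPs, the smallest shift of the 3 stretches in each kind of library. With a smaller share in the first stretch and larger ones in the others, the chromosome as a whole kept 1.49 to 1.63% of the reads in KO inputs and 1.56 to 1.58% in control inputs. In the IPs its share was lower in KO cells, at 1.44% on average, than in control cells, at 1.66%, without overlap.

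Named genes of the first stretch gave the low values in all 3 KO libraries. TYMS had 665, 654 and 715 CPM in control inputs and 357, 392 and 383 CPM in KO inputs. In the IPs TYMS had 1116, 967 and 1001 CPM in control and 318, 336 and 307 CPM in KO cells, and it fell by 1.68 ± 0.09 (SE) on the log2 scale (limma adjusted p = 2.9e-11). Neither comparison overlapped. USP14, a deubiquitinating enzyme of the proteasome that was chosen after its values were seen, had 172, 153 and 156 CPM in control inputs and 74.3, 70.4 and 82.2 CPM in KO inputs. Its IPs held 413, 415 and 421 CPM in control and 136, 144 and 151 CPM in KO cells, so it too had no overlap. SEH1L encodes a subunit of the nuclear pore. It had 271, 260 and 282 CPM in control inputs against 116, 129 and 132 CPM in KO inputs, and in the IPs 297, 303 and 306 CPM against 61.8, 55.0 and 68.1 CPM. The IP difference of SEH1L was -2.30 ± 0.09 (limma adjusted p = 2.2e-12), larger than its input difference of -1.11 ± 0.09.

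The neighbouring genes MYL12A and MYL12B, which encode regulatory light chains of non-muscle myosin, were both lower in KO inputs, with differences of -0.73 ± 0.10 and -0.51 ± 0.09. In the IPs they fell by 1.30 ± 0.10 and 1.58 ± 0.09. PTPN2, a tyrosine phosphatase, had an input difference of -1.14 ± 0.12 and fell by 1.03 ± 0.12 in the IPs, so its differences were alike in both kinds of library. NDUFV2, a subunit of respiratory complex I, fell by 1.10 ± 0.09 in the IPs, with 247, 275 and 271 CPM in control and 118, 119 and 132 CPM in KO libraries. TUBB6, a beta tubulin chosen after its values were seen, fell by 1.46 ± 0.09 in the IPs and had an input difference of -0.75 ± 0.09.

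Some genes of the first stretch did not follow it. SMCHD1, a protein of X-chromosome inactivation, had 45.4, 54.5 and 55.7 CPM in control inputs and 50.8, 51.4 and 69.8 CPM in KO inputs, which overlap. Its IPs nevertheless fell by 1.20 ± 0.15 (limma adjusted p = 2.4e-06), from 36.3, 35.9 and 31.7 CPM to 16.7, 16.1 and 12.6 CPM. ENOSF1, which lies beside TYMS on the opposite strand, had an input difference of 0.46 ± 0.14 and fell by 0.54 ± 0.14 in the IPs. SPIRE1, an actin nucleator, had an input difference of 0.04 ± 0.10 and rose by 0.68 ± 0.10 in the IPs, with 189, 169 and 187 CPM in control and 305, 281 and 290 CPM in KO libraries. RNMT encodes the enzyme that methylates the guanosine of the messenger RNA cap and was chosen after its values were seen. It had 66.4, 63.7 and 72.1 CPM in control inputs and 35.6, 36.3 and 35.1 CPM in KO inputs, but its IP levels of 162, 176 and 170 CPM and of 175, 147 and 165 CPM overlapped. LINC00667, a long non-coding RNA, was alike in this: 114, 118 and 130 CPM in control inputs against 67.7, 63.3 and 65.9 CPM in KO inputs, with an IP difference of 0.08 ± 0.09. LINC00667 starts near genes on the opposite strand, and so do TYMS, MYL12A, MYL12B, RNMT and SPIRE1; whether the authors' counting used strand is not given in the sources used here, so reads of such partners cannot be told apart. NDUFV2 above, and SMAD4 and RPL17 among the genes that follow, start near another gene on their own strand.

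The sign of the input difference changed near the end of the first stretch. LINC01444, whose start is at 14970468, was the last gene before a stretch without a listed gene, in which the centromere lies. It had 10.5, 17.0 and 15.5 CPM in control inputs and 0.574, 0.812 and 0.325 CPM in KO inputs. On the other side ROCK1, a kinase of the actin cytoskeleton, had 34.7, 26.3 and 32.1 CPM in control inputs and 35.3, 34.6 and 38.3 CPM in KO inputs. ROCK1 lies before 21.3 Mb, so it counts in the first stretch, yet its input difference was 0.22 ± 0.13 and its IP difference 0.29 ± 0.13 (limma adjusted p = 0.0654; 0.0331 to 0.202 with each library left out in turn). The next gene, GREB1L, had an input difference of 0.37 ± 0.41. Past the border SNRPD1, a core protein of the spliceosome, had 179, 187 and 158 CPM in control inputs and 224, 227 and 227 CPM in KO inputs. It rose in the IPs by 0.27 ± 0.09 (limma adjusted p = 0.019), a call lost without control IP library 1 (0.23, adjusted p = 0.0812) or library 3 (0.25, adjusted p = 0.0623). ESCO1, a cohesin acetyltransferase, had an input difference of 0.57, and ABHD3 of 0.30. In the running median over 11 genes, the inputs went from -0.96 at lowest to 0.22 at highest within the first stretch.

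Genes next to the centromere on the short arm had low values in KO inputs, given here as a description. Every listed gene from the pseudogene RHOT1P1 to LINC01444 had an input difference of -2.42 or lower. LINC01444 had 39, 74 and 53 reads in control inputs and 2, 3 and 1 reads in KO inputs. The following genes were chosen after their values were seen. POTEC, of a primate gene family with many copies, had 69, 78 and 56 reads in control inputs and 0 in each KO input, at least 60.3-fold lower with a floor of 3 reads over the 3 libraries. The pseudogene CXADRP3 had 38, 95 and 80 reads in control inputs and 0 in each KO input, at least 63.3-fold lower. In the IPs CXADRP3 had 94, 83 and 78 reads in control and 0, 1 and 0 reads in KO libraries. The pseudogene SNX19P3 was at least 3.27-fold lower in KO inputs on the same floor. The pseudogene ANKRD20A5P, which lies before them, kept 3.44, 2.16 and 2.60 CPM in KO inputs, against 9.14, 12.1 and 12.8 CPM in control inputs. LINC01444, POTEC, CXADRP3 and SNX19P3 passed the filter on low values only through control libraries, so their differences are a description. All of these genes belong to families with near-identical copies on other chromosomes, except LINC01444, so their counts are uncertain where reads map to several copies.

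A short run of low genes lay inside the middle stretch, where most genes were higher. ELP2, a subunit of the Elongator complex that modifies transfer RNA, had 83.8, 84.3 and 85.8 CPM in control inputs and 33.0, 31.9 and 17.9 CPM in KO inputs. MOCOS, an enzyme that activates the molybdenum cofactor, had 297, 288 and 293 CPM against 92.1, 93.6 and 107 CPM. COSMOC, a non-coding RNA on the strand opposite MOCOS, had 37.4, 41.5 and 37.9 CPM against 8.61, 6.49 and 6.50 CPM. Their control and KO libraries did not overlap, and the IPs fell by 2.59 ± 0.19 for ELP2, 1.85 ± 0.10 for MOCOS and 2.96 ± 0.31 for COSMOC (limma adjusted p = 2.27e-09, 3.21e-11 and 2.44e-07). SLC39A6, a zinc transporter that starts next to ELP2 on the opposite strand and was chosen after its values were seen, had 41.9, 49.0 and 47.6 CPM in control inputs and 12.1, 13.5 and 20.1 CPM in KO inputs. Its IPs fell by 2.38 ± 0.29. The starts of ELP2 and SLC39A6, and those of COSMOC and MOCOS, are close to each other on opposite strands, as the printed windows of COSMOC and MOCOS show, so each pair may share reads.

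The genes on either side of that run, chosen after their values were seen, did not share its low values. RPRD1A, which binds RNA polymerase, had 117, 126 and 132 CPM in control inputs and 162, 153 and 185 CPM in KO inputs. FHOD3, a formin, had an input difference of 0.40 ± 0.37, and TPGS2, of the tubulin polyglutamylase complex, one of 0.60 ± 0.11. The IP differences of RPRD1A and TPGS2 were 0.04 ± 0.10 and 0.11 ± 0.11. The genes of the low run span from 36108531, the end of SLC39A6, to 36272157, the end of MOCOS. Only start regions were measured, near 36.1294 Mb for SLC39A6 and ELP2 and near 36.1875 Mb for COSMOC and MOCOS. How far low values reach beyond the measured starts was therefore not measured. The remaining listed gene of the run was the non-coding ENSG00000274849 inside MOCOS. It had 3.49, 3.44 and 5.25 CPM in control inputs and 0.287, 0.812 and 0 CPM in KO inputs.

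**Figure D3:**
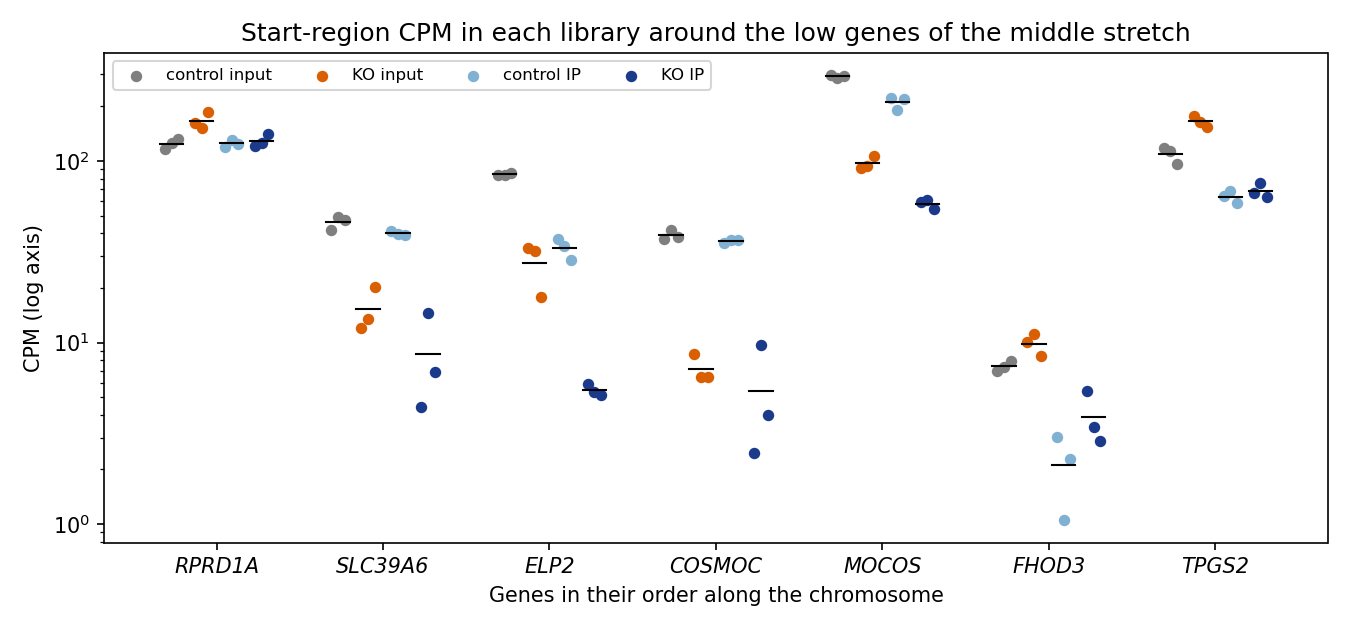
CPM (log axis) of genes in and around the run of low genes in the middle stretch, in their order along the chromosome, with a point for each of the 3 libraries of a group and a line at their mean. SLC39A6, ELP2, COSMOC and MOCOS are lower in KO inputs and KO IPs than in the controls, and their neighbours on both sides are not.

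Most genes of the middle stretch were higher, but not all. Of its 53 well covered genes, the low run among them, 44 lay above 0 and 9 below in inputs, and 35 above and 18 below in the IPs. EPG5, a protein of autophagy, had 13.7, 13.7 and 13.1 CPM in control inputs and 31.0, 34.4 and 35.4 CPM in KO inputs. Its IPs rose by 1.68 ± 0.11 (limma adjusted p = 4.72e-10), from 88.7, 92.4 and 100 CPM to 314, 269 and 323 CPM. SMAD2, which carries TGF-beta signals to the nucleus, had 177, 189 and 184 CPM in control inputs and 210, 225 and 220 CPM in KO inputs, without overlap. Its input difference of 0.25 was not called. In the IPs SMAD2 rose by 1.09 ± 0.08 (limma adjusted p = 3.36e-09), with 192, 180 and 205 CPM in control and 411, 417 and 400 CPM in KO libraries. ATP5F1A, a subunit of the mitochondrial ATP synthase, went apart from them: its inputs overlapped, at 497, 465 and 461 CPM against 651, 630 and 490 CPM, and its IPs fell by 0.93 ± 0.11 (limma adjusted p = 1.72e-06).

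A few genes were near absence in control cells and present in KO cells. MIR4527HG, the host gene of a microRNA in the middle stretch, had 5, 3 and 5 reads in control inputs and 381, 389 and 253 reads in KO inputs. Its IPs had 2 reads in each control and 278, 284 and 214 reads in KO libraries in turn. MIR4527HG passed the filter on low values only through its KO libraries, and so did the genes named next, except NETO1, so their differences are a description. Its neighbour, the pseudogene TPMTP1, had 0 reads in each control input and 3, 2 and 6 reads in KO inputs, at least 4.11-fold higher on the floor of 3 reads over the group. The following genes were chosen after their values were seen. L3MBTL4, a chromatin protein gene in the first stretch, had 0 reads in all 6 control libraries and 28, 27 and 35 reads in KO inputs, at least 33.7-fold higher, and 7, 3 and 7 reads in KO IPs. ENSG00000263637, a non-coding RNA of the last stretch, had 0 reads in the control libraries and 24, 23 and 16 reads in KO inputs, at least 23.6-fold higher. In its IPs 22, 25 and 25 reads gave a level at least 49.5-fold higher. NETO1, which assists glutamate receptors, rose in the IPs by 3.24 ± 0.52. NFATC1, a calcium-dependent transcription factor, had an IP difference of 3.04 ± 0.93 and no more than 4.88 CPM in any library.

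In the last stretch, genes of many roles were higher in KO inputs. SMAD4, the partner of SMAD2, had 73.4, 81.8 and 83.2 CPM in control inputs and 112, 103 and 115 CPM in KO inputs, and rose in the IPs by 0.34 ± 0.10 (limma adjusted p = 0.0107). MBD2, which binds methylated DNA, had 131, 134 and 147 CPM in control inputs and 236, 212 and 330 CPM in KO inputs, and rose in the IPs by 0.82 ± 0.13. CYB5A, a cytochrome of the endoplasmic reticulum, had an input difference of 0.71 ± 0.11 and rose in the IPs by 0.96 ± 0.11. TXNL1, a thioredoxin of the proteasome, rose by 0.53 ± 0.08, with an input difference of 0.47 ± 0.08. For each of these genes every KO input lay above every control input. LINC01029, near the end of the chromosome, differed more: 82.2, 65.3 and 61.6 CPM in control inputs against 253, 277 and 234 CPM in KO inputs, and 40.8, 63.0 and 47.0 CPM in control IPs against 451, 445 and 444 CPM in KO IPs. PARD6G, a cell polarity protein and the last listed gene of the chromosome, rose in the IPs by 1.93 ± 0.31 and had an input difference of 1.58 ± 0.31. MYO5B, a motor protein of vesicle traffic, was the 1 gene of this stretch called lower in inputs, among 13 of 106 below 0, with 22.6, 23.8 and 23.6 CPM in control inputs, 13.5, 16.5 and 8.12 CPM in KO inputs, and a fall of 0.90 ± 0.21 in the IPs.

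Some genes of the last stretch were higher in KO inputs and lower in KO IPs. PMAIP1 encodes NOXA, which promotes apoptosis. It had 224, 237 and 231 CPM in control inputs and 316, 320 and 396 CPM in KO inputs, and 484, 490 and 541 CPM in control IPs against 297, 290 and 331 CPM in KO IPs. The IP fall was 0.72 ± 0.10 (limma adjusted p = 4.49e-06). FECH, which inserts iron into haem, had 34.1, 44.2 and 37.6 CPM in control inputs and 60.3, 60.3 and 81.9 CPM in KO inputs, and its IPs fell by 0.49 ± 0.14 (limma adjusted p = 0.00841). BCL2 showed the reverse. Its inputs overlapped, at 21.5, 18.1 and 23.6 CPM against 19.5, 21.9 and 28.6 CPM, and its IPs rose by 1.48 ± 0.17, from 12.3, 10.5 and 13.2 CPM to 29.9, 35.1 and 35.5 CPM.

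Genes that were lower in KO inputs were mostly lower in KO IPs too. Over the 270 genes Pearson's r was 0.783 and Spearman's rho 0.642, and 214 genes had the same sign in both. Over the well covered genes they were 0.830 and 0.672, against 0.341 and 0.258 over all 9646 genes that well covered. These are descriptions: the genes share the 12 libraries, neighbours along a chromosome are not independent, and a few genes with large differences weigh on r. In the first stretch 33 genes were called lower in both kinds of library, which is 75% of its lower input calls and 68.8% of its lower IP calls. In the last stretch 28 genes were called higher in both, 66.7% of the input calls and 50% of the IP calls, and in the middle stretch 10, 47.6% and 33.3%. The share called in both was not computed over all genes, of which 26% fell and 23% rose in the IPs. The input calls come from the contrast that drew the stretches, so these overlaps are a description only.

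**Figure D4:**
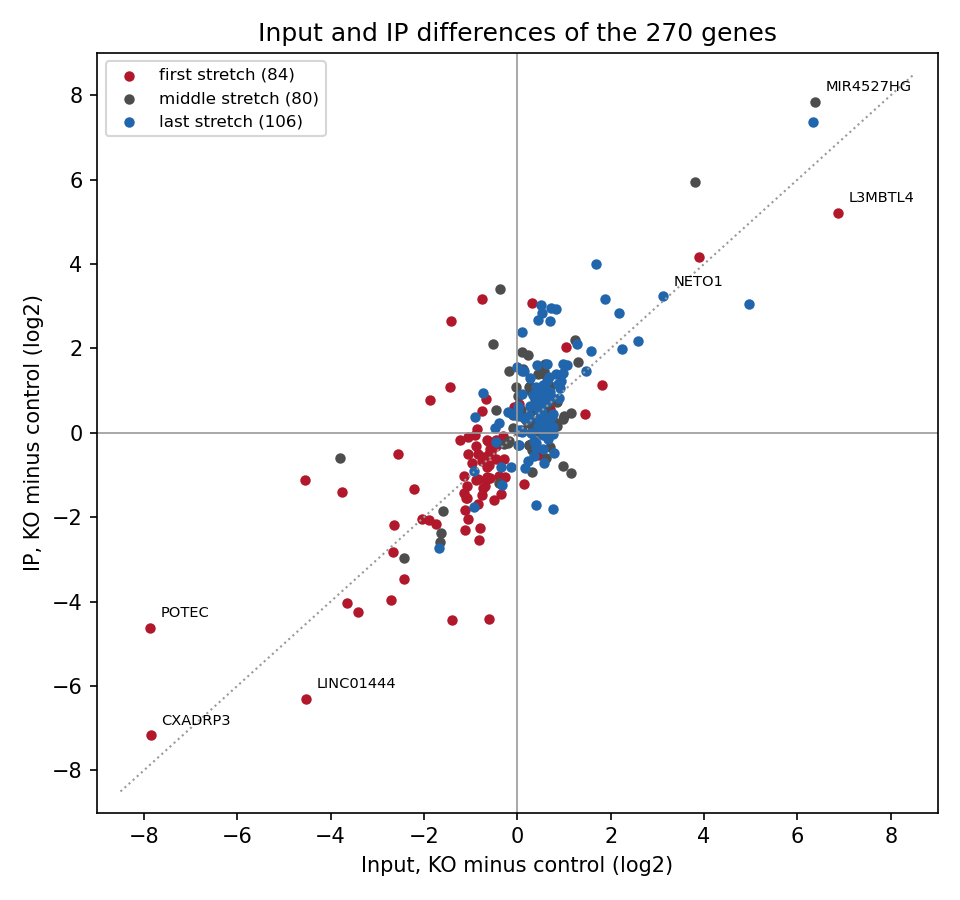
IP difference (vertical axis) against input difference (horizontal axis), KO minus control on the log2 scale, for the 270 genes, coloured by stretch, with some genes named. First-stretch genes gather in the lower left and last-stretch genes in the upper right, and 214 of 270 have the same sign in both.

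The lists of genes by role were written from general knowledge, and their counts are read against the shares over all genes given above. Of 8 mitochondrial genes, both in the first stretch, NDUFV2 and AFG3L2, fell in the IPs, and over all 8 the IPs rose for 3 and fell for 4, with a median of -0.38. Of 18 genes of cell division and genome maintenance, all 8 in the first stretch fell in the IPs, and 2 of the other 10 rose. NDC80, a kinetochore protein chosen after its values were seen, fell by 1.04 ± 0.12. The median of the list was -0.35 in the IPs and 0.21 in the inputs. Of 22 genes of TGF-beta signalling and transcription, 12 rose and 1 fell in the IPs, with a median of 0.52; all but 1 of the 22 lie in the middle and last stretches. SMAD7, an inhibitor of TGF-beta receptors, rose by 1.08 ± 0.17 in the IPs, from 25.9, 25.2 and 32.2 CPM to 62.8, 53.6 and 59.0 CPM. TGIF1, a repressor of SMAD targets in the first stretch, fell by 0.45 ± 0.09.

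The remaining lists were mixed. Of 13 genes of translation and RNA processing, 6 rose and 2 fell in the IPs, with a median of 0.20, and the ribosomal protein gene RPL17 rose by 0.36 ± 0.08. Of 14 adhesion and cytoskeleton genes 6 rose and 4 fell, with a median of 0.39. Of 10 genes of apoptosis, kinases and growth control 4 rose and 3 fell, with a median of 0.15. YES1, a kinase of the SRC family that lies in the first stretch, fell by 0.58 ± 0.12. MALT1, a protease of lymphocyte signalling in the last stretch, fell by 1.24 ± 0.19. SOCS6, an inhibitor of cytokine signalling in the last stretch that is on none of the lists, rose by 1.23 ± 0.19. Of 17 genes of lipid, membrane and protein traffic 4 rose and 6 fell, with a median of -0.21. NPC1, which exports cholesterol from lysosomes, had an IP difference of 0.11 ± 0.19, and VAPA, which tethers membranes to the endoplasmic reticulum, fell by 1.09 ± 0.09.

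Enrichment by the antibody is the IP minus the input within a genotype. In control cells 74 of the 270 genes were enriched and 70 depleted (27.4% and 25.9%), where 27.7% and 28.2% of all genes were. In KO cells 81 were enriched and 74 depleted (30% and 27.4%), where 28.4% and 31% of all genes were. The shares over the whole chromosome thus lay near those of the whole table. By stretch, control cells had 28 genes enriched and 18 depleted in the first, 23 and 22 in the middle, and 23 and 30 in the last, with median enrichments of 0.29, 0.17 and -0.07 on the log2 scale. In KO cells the counts were 28 and 23, 24 and 24, and 29 and 27, with medians of 0.04, 0.07 and -0.07. The differences between stretches were not tested. CHMP1B, of the membrane-cutting ESCRT machinery, was among the most enriched, with 187, 184 and 184 CPM in control inputs and 1329, 1404 and 1360 CPM in control IPs, although it lies inside GNAL on the same strand and may take reads from it. AFG3L2, a mitochondrial protease, was among the most depleted, with 306, 286 and 306 CPM in control inputs and 61.7, 63.0 and 67.5 CPM in control IPs.

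PCIF1-dependent enrichment is the control enrichment minus the KO enrichment, and a value above 0 means that the pull-down was stronger with PCIF1. It contains the inputs that drew the stretches. It was higher for 41 of the 270 genes (15.2%) and lower for 37 (13.7%), where 15.8% and 13% of all genes were. By stretch, 17 were higher and 12 lower in the first, 11 and 13 in the middle, and 13 and 12 in the last, with medians of 0.15, 0.01 and -0.17. In the first stretch SMCHD1 had 1.34 ± 0.22 (limma adjusted p = 0.000108), SEH1L 1.18 ± 0.13, MYL12B 1.07 ± 0.13 and TYMS 0.84 ± 0.12. All 4 have A as their first transcribed base, but 7 of the 17 genes called higher in this stretch do not. LINC00667, which starts with G, had -0.96 ± 0.13, and RNMT, which starts with A, -0.85 ± 0.14. LAMA1, a basement membrane laminin that starts with G, had 1.72 ± 0.56 (limma adjusted p = 0.0249; up to 0.0685 with each library left out in turn, and not called in 5 of 12 such fits).

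In the other stretches ATP5F1A, which starts with C, had a PCIF1-dependent enrichment of 1.24 ± 0.16, and SMAD2, which starts with G, -0.84 ± 0.12. ELP2, which starts with G, had 0.92 ± 0.27 (limma adjusted p = 0.0147), a call lost without KO input library 1 (0.76, adjusted p = 0.0515) and with limma voom on recovered reads (adjusted p = 0.052). PMAIP1 and FECH, both starting with A, had 1.29 ± 0.14 and 1.28 ± 0.20. BCL2 starts with A as well and had -1.34 ± 0.25, and LINC01029, which starts with C, -1.30 ± 0.19. MIR4743, a microRNA inside CTIF, had -1.94 ± 0.31, and shares its strand with its host gene.

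The first transcribed base was A for 130 of the 270 genes (48.1%), where it was A for 43.8% of all genes with a start in the annotation. PCIF1-dependent enrichment was higher for 25 of the 130 (19.2%) and lower for 12 (9.23%). Of the 140 genes with another first base it was higher for 16 (11.4%) and lower for 25 (17.9%). Over the whole table, 22.7% of genes starting with A and 10.5% of the others were higher. Among protein-coding genes of the chromosome, 23 of 93 starting with A were higher (24.7%) and 14 of 85 others (16.5%), where all protein-coding genes gave 27.6% and 13.4%. A-starting genes of the chromosome were therefore called higher more often than others, as they were over the whole table. The share of A did not set the stretches apart, at 48.8%, 45% and 50%, and the difference between first bases was not tested over the genes of the chromosome.

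The chromosome and the borders were chosen on the input difference, so its place among chromosomes in inputs follows from that choice and is given as a description. In inputs 43.0% of its genes were called, followed by 21.0% on chromosome 20, where 11.2% of all genes were. In IPs 60% were called, followed by 55.5% on chromosome 20, where 49% of all genes were. In windows of 20 neighbouring well covered genes, described for inputs on the same terms, the 8 windows of chromosome 18 had input medians of -0.72, -0.63, 0.28, 0.35, 0.30, 0.41, 0.48 and 0.61 from the first end to the last. Of 463 windows on other chromosomes, 5th to 95th percentile -0.16 to 0.16, 1 was at or below -0.63 and 5 were at or above 0.28. The IP medians of the same 8 windows were -1.12, -0.64, 0.16, 0.41, -0.28, 0.38, 0.57 and 0.70. The window at -0.28, which holds the run of low genes at ELP2 and MOCOS, was below 0 in the IPs. Its genes outside that run lay on both sides of 0. Over the 11 well covered genes centred on ATP5F1A, none of them in the run, the running median was -0.27 in the IPs and 0.31 in the inputs. Other chromosomes reached -0.98 (chromosome 20) and 0.77 (chromosome 3) in the IPs, so the highest IP window was not on chromosome 18.

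**Figure D5:**
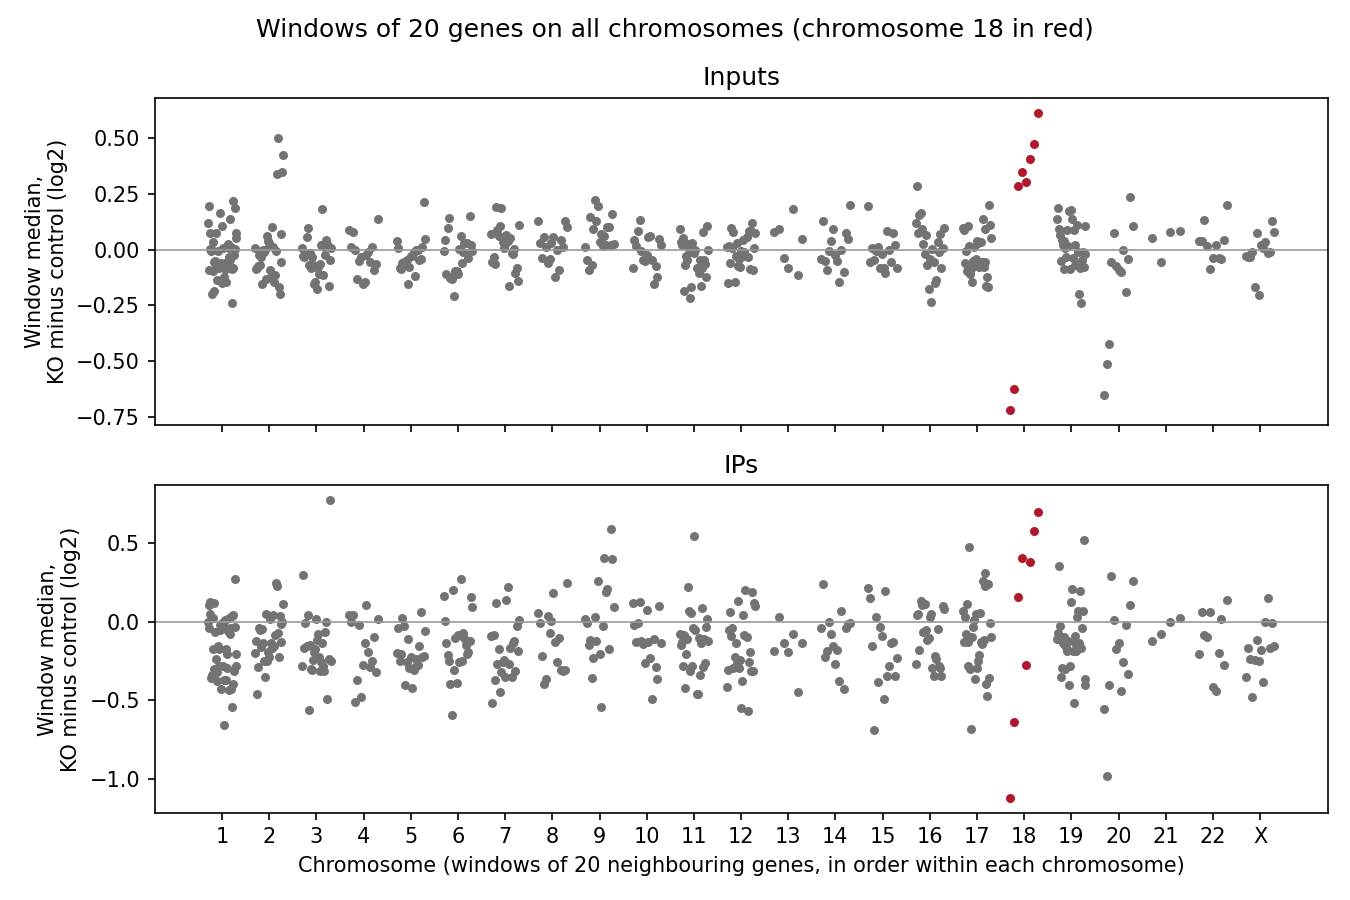
Median KO minus control (log2, vertical axis) of windows of 20 neighbouring well covered genes on each chromosome (horizontal axis), in inputs (top) and IPs (bottom), chromosome 18 in red. The 8 red points of the inputs run from -0.72 to 0.61, and those of the other chromosomes lie mostly between -0.16 and 0.16.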

How the data were processed

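Reads at transcription start sites were measured in 12 libraries of MEL624 cells: inputs and IPs of control and PCIF1 KO cells, 3 each. The authors deposited log2 CPM per gene for these libraries, and per the submitters' processing notes the tools were HISAT2 2.0.4, SAMtools 1.7, deepTools 3.0.2, featureCounts and edgeR 3.12.1 in R 3.3.3, with the hg38 build; which step used which tool is not given there, nor are the counting window, the strand setting and the gene filter. Column names give the group, and their numbers could not be tied to replicate letters. Less a small constant, the values were whole multiples of 1 read in every library, which gave the read counts behind the deposited log2 values. Another 18 samples of a first stage, with 8 antibodies and 1 library each, are not analysed here.

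All 16009 genes were fitted with limma 3.58.1 (R 4.3.3) with a mean-variance trend, a mean for each of 4 groups and 5 contrasts, with Benjamini-Hochberg adjustment over all genes and calls at adjusted p under 0.05. On counts simulated for the 16009 genes, 71% of genes changed 1.5-fold and 95% of genes changed 2-fold were called in the input comparison, and 65% and 91% in the IP comparison, with 0 and 10 of 15809 unchanged genes called. Changed genes were drawn only from well covered genes. Every gene had the same spread between replicates (dispersion 0.0031), taken from genes with many reads. These figures therefore do not apply to genes with few reads or a larger spread. Intervals and floors from reads cover counting error only. Replicate numbers were tested for pairing and fell short of the criterion that every same-numbered pair correlate above 0.1, so no block was used. Figures used Python 3.11.15 and matplotlib 3.10.9.

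The genes, stretches and lists were chosen with earlier results of these data known. Genes were named by rule: 3 on each side of each border, and up to 4 of each role list with the highest mean. In each stretch they were also the 4 highest and 4 lowest input differences among well covered genes without a same-strand neighbour, called or not. The 3 largest each way in PCIF1-dependent and in control enrichment were added, among well covered called genes whose compared libraries did not overlap. Others are said to be chosen after their values were seen. Alternatives changed the scaling, the filter, the pseudocount, same-strand neighbours, the stretch borders, gene types, the replicate block and each library in turn; a voom fit on recovered reads and the floor of 3 reads were added after seeing the data. A negative-binomial count test that was planned was not run. The result of a gene that met this rule is not reported here.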

Additional observations from a re-analysis of the deposited data

Results flagged for a closer look

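PCIF1-dependent enrichment is the difference of the antibody's enrichment between the genotypes. It differed from 0 by the interaction test of limma for the named genes below. The causes were not tested. Values are on the log2 scale, and a positive value means more enrichment in control cells.

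In the first stretch it was positive for TYMS (0.84), ENOSF1 (0.99), SMCHD1 (1.34), SEH1L (1.18), LAMA1 (1.72), VAPA (0.44), the light chain genes MYL12A (0.57) and MYL12B (1.07), and the antisense RNA DLGAP1-AS1 (0.58). It was negative there for the cap methyltransferase gene RNMT (-0.85), DLGAP1-AS2 (-1.06), LINC00667 (-0.96), NDUFV2-AS1 (-1.28), CHMP1B (-0.55), PSMG2 (-0.45) and SPIRE1 (-0.65).

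In the middle stretch it was positive for RMC1 (1.21), ELP2 (0.92), the urea transporter gene SLC14A1 (0.79) and ATP5F1A (1.24), and negative for MIB1 (-0.84), MIR4741 (-0.89), CABLES1 (-0.96), TMEM241 (-1.03), MIR4527HG (-1.47) and SMAD2 (-0.84). The call of MIR4527HG was lost with limma voom (adjusted p = 0.111). That gene passed the filter on low values only through its KO libraries, so its value is a description. The limma calls of TMEM241 and LAMA1 were each lost in 5 of 12 fits that left out a library, with adjusted p up to 0.081 and 0.0685.

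In the last stretch it was positive for CTIF (0.79), C18orf32 (1.01), FECH (1.28), the ubiquitin ligase gene NEDD4L (0.62), MALT1 (0.92), PMAIP1 (1.29), VPS4B (0.60) and TXNL4A (0.70). It was negative for MIR4743 (-1.94), SMAD7 (-0.68), SNORD58B (-1.37), CCBE1 (-0.47), BCL2 (-1.34) and LINC01029 (-1.30). MIR4743 and SNORD58B lie inside genes on the same strand, as CHMP1B of the first stretch does, and may share reads with their hosts. Genes with a same-strand neighbour were not left out of these lists, so others here may share reads too.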

How the results depend on the processing

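No direction reversed under any alternative run. The counts compared were lower calls in the first stretch and higher calls in the middle and last, in inputs and IPs, and enrichment calls over the chromosome. Each of these counts stayed within 1.5 times its value. Calls in the other direction within a stretch were not compared. The input median of the first stretch, -0.76, was -0.66 over well covered genes (log2 CPM averaging 3 or more) and -0.65 with log2(CPM + 1). That of the middle stretch, 0.31, was 0.38 without same-strand neighbours. That of the last stretch, 0.51, was 0.55 with libraries centred on other chromosomes, 0.49 over well covered genes, 0.45 with log2(CPM + 1) and 0.54 without neighbours. The IP median of the first stretch, -0.91, was -0.72, -0.63 and -0.74 under those 3 changes and -0.68 with limma voom on recovered reads, and that of the middle stretch, 0.28, was 0.20 over well covered genes. Per library, the KO inputs' last stretch, 0.49, was 0.48 and 0.52 with borders 1 Mb lower and higher and 0.50 over protein-coding genes, and the KO IPs' first stretch, -0.73, was -0.67 with borders 1 Mb higher and -0.77 over protein-coding genes. The cause was not tested. Leaving out each library in turn gave 0.47 to 0.55 for the input median of the last stretch, -0.92 to -0.74 for the IP median of the first and 0.25 to 0.40 for the IP median of the middle. IP calls were then 44 to 49 lower in the first stretch, 25 to 29 higher in the middle and 48 to 56 higher in the last.

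The replicate number as a block changed none of the summary results; for single genes it added calls of ATP5F1A, CABLES1 and SMAD2 in inputs and of RAB12 and ROCK1 in IPs. Over all genes the replicate block gave 1072 higher and 1144 lower input calls, against 890 and 908 without it. Of 18 same-numbered pairs of libraries, 12 correlated above 0.1 (range -0.08 to 0.24) and the 6 of number 2 did not, so the criterion for pairing was not met; differently numbered pairs ran from -0.31 to 0.14. As a hint from the data, each of 6 inputs correlated best with the same-numbered IP of its genotype, whereas control input 2 was closer to KO input 3 (0.10) than to KO input 2 (-0.08). Of 233 results for single genes, 30 changed their call on leaving out 1 of 12 libraries and none reversed; RMC1, FHOD3, CTIF and ENOSF1 were among those. The planned count test was not run, because the deposited unit is log2; voom took its place. The shallow KO IPs limit genes with few reads most.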
